A study of Mus musculus with 191 samples.

Results

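Hemoglobin genes and other genes of the red cell line were followed in RNA sequencing libraries of 5 mouse tissues, namely marrow of the bone, lung, liver, gut and the skin of the ear. The set holds 8 genes chosen by name, out of 21197 genes in the deposited tables: the alpha globin genes Hba-a1 and Hba-a2, the adult beta globin genes Hbb-bt and Hbb-bs, carbonic anhydrase 2 (Car2), the transcription factor Klf1, the erythropoietin receptor Epor and the anion exchanger Slc4a1. All 8 were analysed in bone marrow and skin, 7 in liver, 7 in lung and 6 in gut. Slc4a1 in liver, Klf1 in lung, and Epor and Slc4a1 in gut were not analysed here.

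Of 191 libraries, 144 came from bone marrow, gut, liver and lung of wild-type C57BL/6 mice. In each of these tissues 18 libraries came from mice given control IgG and 18 from mice given anti Ly6G (1A8), an antibody against the neutrophil surface protein Ly6G. Both antibodies were given at 3 µg per g of body weight for 2 days, with collection on the third day, and 3 libraries per treatment were taken at Zeitgeber time (ZT, counted in hours from the onset of light) 1, 5, 9, 13, 17 and 21. An inverted light cycle was used for some of the mice, without a label for each mouse. The sources used here do not say whether the 3 libraries of a time came from 3 mice, so p-values measure the spread between libraries. Skin came from 3 groups, 1 mouse per group at each of 16 ZT from 1 to 24, and mice were perfused with saline before the ears were taken. The 16 labelled control libraries are given as wild-type C57BL/6 mice that received diphtheria toxin (DT). The 16 iDTR libraries came from Mrp8CRE; iDTR mice, where Cre under the Mrp8 promoter turns on the receptor for DT in neutrophils by design, and these mice had 10 µg DT per kg for 2 days. The 15 Bmal1-flox libraries came from Mrp8CRE; Bmal1-flox mice, where the same Cre is designed to delete the clock gene Arntl. They received no DT and lack ZT 16. The strain of the iDTR and Bmal1-flox mice, and the age and sex of all mice, are not given in the sources used here. Mice in the lung protocol were bled from the cheek just before harvest, and blood itself was not analysed here.

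Red cells form in the bone marrow from progenitors that need erythropoietin, which acts through the receptor encoded by Epor. Klf1, the erythroid Krüppel-like factor, binds CACCC motifs and switches on globin and membrane genes, among them Slc4a1, whose product exchanges anions across the red cell membrane and anchors its skeleton. Car2 encodes an enzyme that interconverts carbon dioxide and bicarbonate, is abundant in red cells and is made by many other cell types. Reticulocytes that have left the marrow still hold hemoglobin RNA but no nucleus, so organs carry some hemoglobin RNA with their blood.

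Several labels are in doubt and touch the results below. In the skin, Gt(ROSA)26Sor, a transcript of the locus where iDTR is usually inserted, was at 0.225 to 1.83 (median 0.798) in the labelled control and 0.242 to 1.53 (median 0.604) in iDTR, against 21.0 to 30.2 (median 26.3) in Bmal1-flox. All such values are in the authors' normalized units, used throughout. Wild-type libraries of the other tissues had 5.09 or more. Whether the labelled control mice lack the iDTR insertion, as their label says, is therefore in doubt, which bears on both skin comparisons. Bmal1-flox differed from the labelled control in genotype, in DT and in this transcript, and these cannot be told apart. In lung, the clock gene Dbp peaked at 3.44 h in IgG and 0.301 h in anti-Ly6G libraries, against 8.59 h in IgG liver, so the ZT or treatment labels of lung are doubtful. Of the anti-Ly6G gut libraries, replicate 1 held the seminal vesicle transcript Svs5 at 12477 and replicate 6 the pancreatic transcript Prss2 at 85.9, against medians of 0.256 and 0.0377 over all gut libraries. In bone marrow Ly6g itself had a median of 104 in IgG and 115 in anti-Ly6G libraries. Recovered depth was 7.68 to 30.9 M reads per library, so that 1 read was worth 0.0319 to 0.131 units.

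The hemoglobin genes lie in pairs of near-identical copies. On GRCm38, Hba-a1 spans chr11:32283511-32284465 and Hba-a2 chr11:32296489-32297298, both on the plus strand. Hbb-bt spans chr7:103812524-103813996 and Hbb-bs chr7:103826534-103828096, both on the minus strand. Car2 lies at chr3:14886273-14900770 (plus), Klf1 at chr8:84901928-84905291 (plus), Epor at chr9:21958897-21963506 (minus) and Slc4a1 at chr11:102348824-102366203 (minus). None of the 8 overlaps another annotated gene. Of the possible 50-base reads of one Hba-a1 transcript 67.5% also occur in Hba-a2, and 86.9% of those of Hba-a2 occur in Hba-a1. The shares are 58.3% for Hbb-bt in Hbb-bs and 65.8% for Hbb-bs in Hbb-bt. The split of reads within a pair therefore rests on the authors' quantification, and sums over the alpha pair and over the beta pair are given beside the single genes.

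The promoters of 3 globin genes and of Klf1 are shown because Hbb-bt, Hbb-bs and Klf1 were called lower in marrow and because the copies of the alpha pair differ in level. Each is the 120 bases before the RefSeq start, 5′ to 3′ on the strand of the gene (RefSeq, GRCm38.p6), at chr11:32296372-32296491 for Hba-a2, chr7:103813924-103814043 for Hbb-bt, chr7:103827929-103828048 for Hbb-bs and chr8:84901862-84901981 for Klf1. For Hbb-bt, Hbb-bs and Klf1 the gene annotation used for the spans above starts further upstream. Capitals mark every match, on either strand, to 4 motifs: CACCC, which Klf1 can bind; GATAA, the core of GATA factor motifs; CCAAT, the CCAAT box; and TATAA, the core of the TATA box.
Hba-a2: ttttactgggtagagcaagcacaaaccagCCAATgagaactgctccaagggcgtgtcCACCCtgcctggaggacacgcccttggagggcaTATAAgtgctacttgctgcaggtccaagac
Hbb-bt: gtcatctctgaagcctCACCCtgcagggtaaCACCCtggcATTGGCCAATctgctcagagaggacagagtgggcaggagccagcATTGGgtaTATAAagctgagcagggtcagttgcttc
Hbb-bs: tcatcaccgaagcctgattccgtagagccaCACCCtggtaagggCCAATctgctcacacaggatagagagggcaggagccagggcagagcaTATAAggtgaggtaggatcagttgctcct
Klf1: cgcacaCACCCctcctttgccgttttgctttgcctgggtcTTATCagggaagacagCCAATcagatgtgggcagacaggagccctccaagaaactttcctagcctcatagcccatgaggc
Each of the 3 globin windows holds the CACCC, the CCAAT and the TATAA motif and none holds GATAA. In Hbb-bt an inverted and a forward CCAAT stand side by side. The Klf1 window holds the CACCC motif, an inverted GATAA and a CCAAT box but no TATAA. The window of Epor, which was also called lower in marrow, is not shown. It holds an inverted GATAA and none of the other motifs. No window was read for Car2, also called lower, so a motif shared by the called genes was not tested. Among 32851 RefSeq promoter windows of this length, 31.7% hold CACCC, 10.5% GATAA, 21.3% CCAAT and 11.8% TATAA. Over the 247 bases that could be aligned at an offset of 3 bases, the promoters of Hba-a1 and Hba-a2 were identical in 247. Those of Hbb-bt and Hbb-bs shared 127 of 249 bases (51.0%) at an offset of 1 base. Both counts allow no gaps, so a base gained or lost in 1 copy lowers the share, which can understate likeness. At that offset a CACCC (-89 and -90), a CCAAT (-75 and -76) and the TATAA (-28 and -29) of the beta pair stood in the same place. A match is a string of letters and not a shown binding site.

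Bone marrow held by far the most hemoglobin RNA. The summed signal of the 4 globin genes had a median of 93176 over the 36 marrow libraries, 1894 in lung, 135 in liver, 69.8 in skin and 20.9 in gut. The marrow median was 49.2 times that of lung, 693 times that of liver, 1334 times that of skin and 4468 times that of gut. In marrow the 4 genes took 8.57% to 12.0% of the normalized signal in IgG libraries, and in lung 0.0346% to 0.504%. The plot of summed hemoglobin signal by tissue shows that marrow stands clear of every other tissue. Lung (351 to 8589) overlaps liver (up to 567) and skin (up to 738) but not gut (up to 256). Liver, skin and gut overlap with each other.

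**Figure D1:**
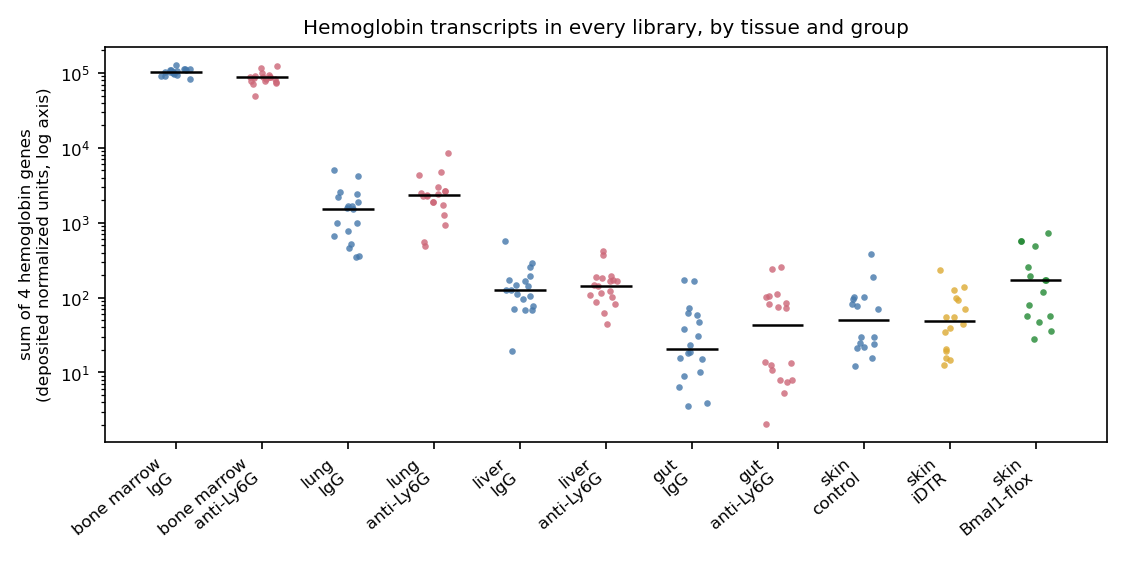
Sum of Hba-a1, Hba-a2, Hbb-bt and Hbb-bs in every library (points; normalized units, log axis) by tissue and group, with the group median as a bar. Marrow lies between 49262 and 128155, while the highest library of each lung, liver, gut or skin group is at least 9.28 times its lowest.

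Per kb of exon, the order of the members was not the same in every tissue. In marrow the mean signal per kb ran from Hba-a2 (61564) through Hbb-bs (46528), Hbb-bt (17201) and Hba-a1 (7831) to Car2 (855), Slc4a1 (615), Klf1 (94.8) and Epor (43.2). Gut was the one tissue where Car2 came first, at 557 per kb against 31.3 for Hba-a2. Skin had Hbb-bs (69.6 per kb) and Hba-a2 (61.9 per kb) close together, and Hba-a1 (28.3 per kb) above Hbb-bt (15.7 per kb). Slc4a1, above Klf1 and Epor in marrow, was at 0.174 per kb in lung and 0.0466 per kb in skin, the lowest of the analysed members in both.

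The spread between libraries of one group also differed between tissues. The coefficient of variation of the globin genes was 9.90% to 11.3% in IgG marrow and 17.6% to 25.7% in anti-Ly6G marrow. It was 67.8% to 78.8% over both lung groups, 56.8% to 83.6% in liver, 82.1% to 132% in skin and 108% to 129% in gut. Outside marrow, a difference between groups in these genes is thus set against a spread of the same order as the level itself.

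In bone marrow the first comparison asked whether anti-Ly6G treatment went with a change in the erythroid genes. Hbb-bt, Hbb-bs, Car2, Klf1 and Epor fell, 5 of 8 members, and none rose. Of all 14289 genes tested in marrow, 17.1% were called in either direction and 7.16% were called lower. All calls are from limma on log2(value + 1), adjusted for ZT (in skin by a 24 h wave), and p-values were adjusted by Benjamini-Hochberg within the tissue, with a threshold of 0.05. The falls were small, between 0.792 and 0.917 times the IgG level. In bulk tissue, fewer red cell precursors and less of their RNA per cell cannot be told apart.

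Hbb-bs, the more abundant adult beta globin gene, was at 30738, 38977 and 48868 (lowest, median and highest of 18) in IgG libraries and 18069, 32267 and 48060 in anti-Ly6G libraries. Hbb-bt was at 10332, 13537 and 16058 in IgG and 6093, 10716 and 15198 in anti-Ly6G. For both genes the groups overlapped, but 6 of 18 anti-Ly6G libraries lay below the whole IgG range and none above it. Hbb-bt fell by 0.34 on the log2 scale (SE 0.079, adjusted p = 0.00276, limma), and Hbb-bs by 0.31 (SE 0.099, adjusted p = 0.0261). Summed, the beta pair fell by 0.32 (adjusted p = 0.0402).

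Hba-a2, the more abundant alpha globin gene in these tables, was at 37901, 45274 and 55130 in IgG and 21669, 38194 and 50759 in anti-Ly6G libraries. Hba-a1 was at 5307, 6725 and 8099 in IgG and 3431, 5744 and 10098 in anti-Ly6G. Neither alpha gene passed the test. Hba-a2 differed by -0.26 (SE 0.097, adjusted p = 0.0603) although 8 of 18 anti-Ly6G libraries were below the IgG range. Hba-a1 differed by -0.19 (SE 0.076, adjusted p = 0.0899), with 4 anti-Ly6G libraries below the IgG range and 2 above it. The alpha pair together differed by -0.25 (adjusted p = 0.0955). The alpha and beta differences are of like size, and the ratio between the pairs is given below.

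Klf1, the regulator of the globin genes, was at 108, 161 and 185 in IgG and 91.8, 138 and 148 in anti-Ly6G libraries. All 18 anti-Ly6G values were below the IgG median, yet only 1 left the IgG range. It fell by 0.18 (SE 0.057, adjusted p = 0.0207). Epor was at 73.9, 88.3 and 109 in IgG and 58.5, 81.8 and 98.2 in anti-Ly6G, a fall of 0.13 (SE 0.045, adjusted p = 0.0475) that stood at the edge of the threshold. The Epor call was lost on leaving out any 1 of 22 of the 36 libraries, with adjusted p up to 0.0838.

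Car2 was at 1674, 2266 and 2743 in IgG and 1221, 1917 and 2495 in anti-Ly6G libraries. It lay below the IgG median in 17 of 18 anti-Ly6G libraries and fell by 0.24 (SE 0.058, adjusted p = 0.00411). Car2 is also made by osteoclasts. Of 7 osteoclast markers tested 1 fell, Acp5 (by 0.30, adjusted p = 0.0298), and 6 had a negative difference (median of the list -0.20), while their summed signal was 961 to 1506 (median 1206) in IgG and 902 to 1513 (median 1126) in anti-Ly6G. Over all marrow genes, 7.16% were called lower. The part of osteoclasts in the Car2 difference was not tested. Slc4a1 was at 2278, 3183 and 4295 in IgG and 1995, 2903 and 3109 in anti-Ly6G, with every anti-Ly6G library under the IgG median. Its difference of -0.15 (SE 0.055) did not pass the test (adjusted p = 0.0600).

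**Figure D2:**
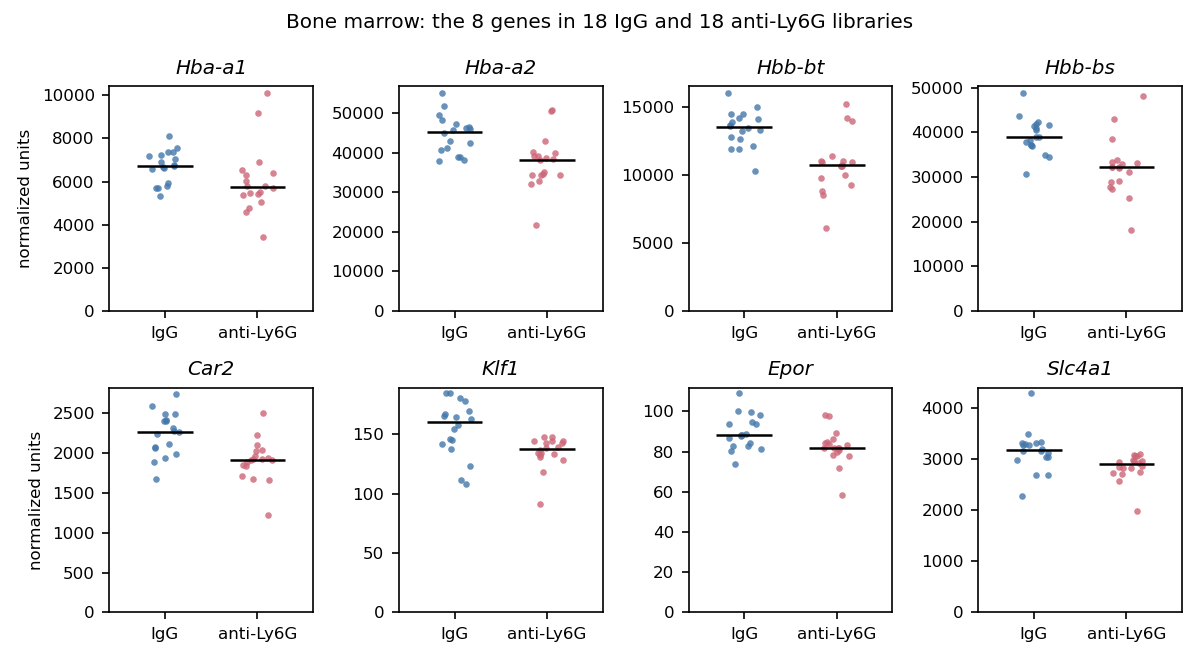
Signal of each of the 8 genes in bone marrow (normalized units, axis from 0), with 18 IgG and 18 anti-Ly6G libraries as points and the median as a bar. The anti-Ly6G median is the lower one in all 8 panels and the groups overlap in each; the lowest anti-Ly6G point is the same library throughout.

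Libraries and times did not contribute evenly. Anti-Ly6G replicate 10, taken at ZT 13, was the lowest of all 36 libraries for each of the 8 genes. Without it 4 members were called. The summed hemoglobin signal at ZT 13 was 91553, 104984 and 111796 in IgG and 49262, 72923 and 78700 in anti-Ly6G, with no overlap. At ZT 5 it was 102201, 108778 and 114417 in IgG and 91419, 118056 and 123030 in anti-Ly6G, where the groups overlapped. The difference in mean log2 value was -0.64 at ZT 13 and 0.02 at ZT 5, the lowest and highest of the 6 ZT. Each compares 3 libraries with 3, and how many of all genes separate in this way was not counted. Car2 and Hba-a2 were lower in anti-Ly6G at 6 of 6 ZT, Epor at 4 and the other members at 5. Leaving out ZT 1, ZT 13 or ZT 21 left 2 members called, and leaving out ZT 17 left 3. The Klf1 call was lost in each of these 4 cases (adjusted p 0.0719 to 0.121), and so was that of Hbb-bs (adjusted p 0.0610 to 0.112), which was also lost without ZT 9 (adjusted p = 0.0863). Without ZT 5, both alpha genes were called lower (adjusted p = 0.0459 for Hba-a2 and 0.00736 for Hba-a1). Quantile normalization, which pins the top ranks that globin genes hold, set Hbb-bs to 0.00 and ended the calls of both beta genes.

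A test of treatment by ZT found no member in marrow (0 of 8 by limma, 3 at an unadjusted p under 0.05, against 0.021% of all genes called). Klf1 had the smallest adjusted p, 0.255. Its anti-Ly6G values were above all IgG values at ZT 9 (133 to 143 against 108 to 123) and below all of them at ZT 1 (138 to 148 against 167 to 185). Each is 3 libraries against 3, at times picked after the values were seen. How many of all genes separate in this way was not counted. No member passed a test of a 24 h rhythm in either marrow group. In IgG libraries 1 of 8 had an unadjusted p under 0.05, against 1.62% of all genes called, and in anti-Ly6G libraries 2 of 8, against 0.406%. Klf1 in IgG marrow came nearest (adjusted p = 0.119).

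The wider erythroid programme was read from 4 lists that exclude the members. In the list of the red cell membrane and its skeleton, 10 of 19 genes fell and none rose, with a median of -0.14 against -0.00 over all genes. The blood group gene Rhd fell by 0.18 (adjusted p = 0.0119) and Epb42 (a band of the skeleton) by 0.18 (adjusted p = 0.0162). Among late erythroid enzymes and clearance genes 8 of 16 fell and none rose, with a median of -0.13. Bnip3l, which marks mitochondria for removal, fell by 0.18 (adjusted p = 0.000554), Car1 (carbonic anhydrase 1) by 0.24 (adjusted p = 0.00128), the exonuclease gene Isg20 by 0.22 (adjusted p = 0.00377) and Bpgm, which makes the red cell's bisphosphoglycerate, by 0.19 (adjusted p = 0.00825). All 35 genes tested in these 2 lists had a negative difference, but they were read in the same libraries and are not independent. Over all genes tested in marrow, 7.16% were called lower.

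The other 2 lists hold transcription factors and erythropoietin signalling, without the called members Klf1 and Epor. Of 12 erythroid transcription factors 9 had a negative difference, but none of these passed, and 1 rose, Lyl1, a factor of early blood progenitors (0.15, adjusted p = 0.00949). Zfpm1, Hemgn and Tal1 were at -0.13, -0.14 and -0.10 and did not pass. In the list of erythropoietin signalling, 2 of 12 genes rose and 1 fell. Over all marrow genes 17.1% were called in either direction, and neither list was tested against that share. The progenitor genes Gata2 and Kit rose by 0.17 and 0.11 (adjusted p = 0.00582 and 0.0217), and Tfrc, the transferrin receptor that brings iron to precursors, fell by 0.18 (adjusted p = 0.0172). The theta globin genes Hbq1a and Hbq1b differed by -0.25 and -0.20 and did not pass. Without ZT 1, the number of membrane genes called lower dropped to 2 and that of late erythroid genes to 5, and the calls of Rhd, Epb42, Tfrc and Kit were lost.

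Other cell types moved in the same libraries. Of 14 neutrophil markers 8 rose and 1, Csf3r, fell, and their summed signal was 24508 to 35618 (median 29144) in IgG and 27685 to 49534 (median 33298) in anti-Ly6G. Of 8 B cell markers 6 fell, with summed medians of 724 and 667. Over all 14289 genes tested in marrow, 1422 were called higher and 1023 lower. None of 13 platelet and megakaryocyte markers was called (limma). The tables are on a per-million scale, on which the members share a total with these genes. Rescaled to the total without globin genes, 6 members were called lower, Hba-a2 in addition. The part of the other cell types in the erythroid differences was not tested.

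Ratios within a library compare erythroid genes with each other without that total. For each, labels were exchanged within ZT in a two-sided permutation test (100000 resamples), adjusted over 17 such tests in marrow and skin. Epor per 1000 units of hemoglobin had a geometric mean of 0.863 in IgG and 0.962 in anti-Ly6G marrow (permutation p = 0.00188, adjusted p = 0.0160), and Bpgm 6.49 and 6.94 (permutation p = 0.00074, adjusted p = 0.0126). These 2 ratios were higher with anti-Ly6G. The alpha to beta ratio was 0.972 and 1.02 (adjusted permutation p = 0.0839). The ratio of Hba-a1 to Hba-a2 was 0.150 and 0.158 (adjusted permutation p = 0.0782), and that of Hbb-bt to Hbb-bs 0.341 and 0.335 (adjusted permutation p = 0.133). Slc4a1 per 1000 hemoglobin was 30.4 and 33.4 (adjusted permutation p = 0.107), and Alas2, the first enzyme of erythroid heme synthesis, 16.6 and 17.5 (adjusted permutation p = 0.0776). Ratios for Klf1 and Car2 did not pass either (adjusted permutation p = 0.172 and 0.382).

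Over the 36 marrow libraries, after removing the mean of each treatment and ZT, the genes most like the hemoglobin sum among 14289 were Bpgm (Pearson r = 0.936, Spearman rho = 0.893), Ube2l6 (r = 0.929), Prdx2 (r = 0.913), Isca1 (r = 0.911), Alas2 (r = 0.909), Ccndbp1 (r = 0.905), March2 (r = 0.888) and Isg20 (r = 0.882). Without the 2 libraries farthest from the median these were 0.847 to 0.909. Of the other members Car2 had r = 0.793, Klf1 0.706, Epor 0.642 and Slc4a1 0.557. These are descriptions over libraries that share a tissue and a per-million total.

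The copies of a pair had different shares in different tissues. These ratios are not per length and are read only across tissues. The ratio of Hba-a1 to Hba-a2 was 0.139 to 0.199 (median 0.152) in marrow, 0.210 to 0.371 (0.236) in lung and 0.390 to 0.938 (0.575) in skin. Neither lung nor skin overlapped with marrow. Liver (0.163) and gut (0.210) had medians nearer to marrow and overlapped with it. Skin thus carried relatively more Hba-a1 signal than any other tissue, 3.79 times the marrow ratio. Hbb-bt to Hbb-bs had a median of 0.338 in marrow and 0.246 in lung, with no overlap, and 0.208 to 0.246 in liver, skin and gut, which overlapped with marrow. The alpha to beta ratio stayed nearer to 1: its medians were 0.998 in marrow, 0.874 in lung, 0.965 in liver, 0.990 in gut and 1.06 in skin. Each tissue was normalized in its own table, and how reads were divided between copies was not tested.

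In lung and liver, several other erythroid genes did not keep their marrow proportion to hemoglobin. Slc4a1 per 1000 hemoglobin was 23.4 to 40.5 (median 31.5) in marrow and 0.195 to 0.850 (median 0.378) in lung, an 83.3-fold lower median with no overlap. Alas2 per 1000 hemoglobin was closer, at 14.7 to 19.2 (median 17.2) in marrow and 6.69 to 13.4 (median 10.5) in lung. In liver the Alas2 ratio was 190 to 4576 (median 710), with no overlap with marrow. Klf1 per 1000 hemoglobin had a median of 1.55 in marrow and 15.7 in liver, again with no overlap. Epor in liver, Car2 in gut, and Bpgm in lung, liver, gut and skin also had no overlap with marrow. Alas2 and Klf1 in gut and skin did overlap with marrow. So did Epor in lung and skin, Car2 in lung, liver and skin, and Slc4a1 in skin. The Alas2 median was 13.7 in gut and 30.7 in skin.

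**Figure D3:**
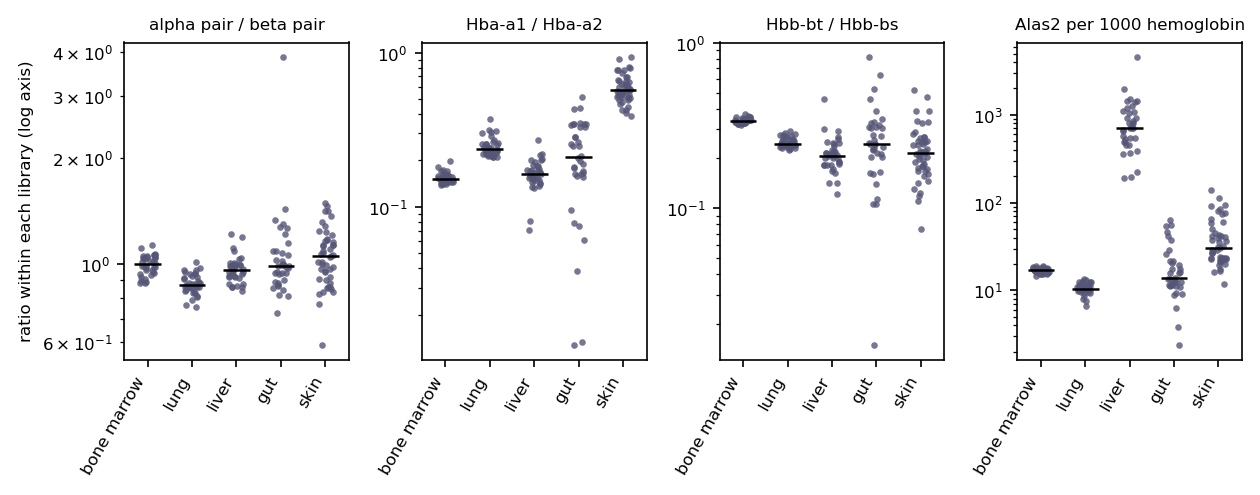
Ratios within each library (points, log axes) in 36 bone marrow, 36 lung, 36 liver, 36 gut and 47 skin libraries, with medians as bars. From left to right, the alpha pair to the beta pair, Hba-a1 to Hba-a2, Hbb-bt to Hbb-bs, and Alas2 per 1000 units of hemoglobin; Hba-a1 to Hba-a2 is highest in skin (median 0.575) and Alas2 per hemoglobin in liver (median 710).

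In lung, hemoglobin values were higher in many anti-Ly6G libraries, but the difference did not pass the test. Hba-a2 was at 139, 568 and 1905 in IgG and 192, 884 and 3532 in anti-Ly6G libraries, and Hbb-bs at 139, 658 and 2135 in IgG and 198, 995 and 3347 in anti-Ly6G. The groups overlapped almost fully, and for each globin gene 14 of 18 anti-Ly6G libraries were above the IgG median. Log2 differences were 0.70 to 0.76 for the 4 genes (1.63 to 1.69 fold, SE 0.33 to 0.35), with adjusted p from 0.498 to 0.520. None of 6 members was called by limma, 4 had an unadjusted p under 0.05, and 0% of 15641 genes were called. The sum was higher with anti-Ly6G at 5 of 6 ZT, and the highest library was anti-Ly6G replicate 16 (ZT 21) at 8589. Summed neutrophil markers had medians of 135 in IgG and 184 in anti-Ly6G libraries, and B cell markers 67.3 and 84.5. Their part in these values was not tested.

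Hemoglobin in lung moved together with Alas2. Over 36 lung libraries Alas2 had r = 0.988 with the hemoglobin sum (rho = 0.989, and r = 0.985 without 2 libraries) and Bpgm r = 0.836. Next came Nrgn (0.745), Tmub2 (0.726), Gm12184 (0.689), Ube2l6 (0.680), Fam220a (0.680) and Rsad2 (0.671). Alas2 was at 2.43, 15.4 and 47.8 in IgG and 4.10, 24.3 and 95.8 in anti-Ly6G, a log2 difference of 0.69 that did not pass (adjusted p = 0.510). Car2 in lung had r = 0.173 with hemoglobin and Epor 0.234. Their levels were 59.95, 77.5 and 92.9 in IgG and 67.6, 77.0 and 89.9 in anti-Ly6G for Car2, and 2.34, 3.98 and 6.79 against 2.27, 4.73 and 7.13 for Epor. Slc4a1, with medians of 0.673 and 0.794, was under the mean of 1 required for the test, and no gene of the 4 erythroid lists was called in lung (0 of 42 by limma).

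Rhythms in lung rest on doubtful labels, and 1 of 6 members was called in each group, near the share of all genes (11.2% in IgG and 12.7% in anti-Ly6G). Epor in anti-Ly6G lung was at 5.57 to 7.13 at ZT 1 and 6.23 to 6.78 at ZT 21, and at 2.27 to 3.79 at ZT 17. Its rhythm was called there (amplitude 0.33 on the log2 scale, peak 0.299 h, adjusted p = 0.0412) and not in IgG (adjusted p = 0.186). Leaving out any 1 of 12 libraries ended this call (adjusted p up to 0.101 without anti-Ly6G replicate 3), as did leaving out ZT 1, 9 or 21. The treatment by ZT test of Epor had an adjusted p of 0.0543, so no member was called (0 of 6 by limma, 1 at an unadjusted p under 0.05, against 1.11% of genes). In IgG lung Car2 peaked at 15.6 h (amplitude 0.16, adjusted p = 0.0193), a call lost without IgG replicate 14 (adjusted p = 0.0551), ZT 1 or ZT 17. In anti-Ly6G lung Car2 was not called (adjusted p = 0.201).

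Liver hemoglobin did not differ detectably between treatments. Hba-a2 was at 8.73, 54.3 and 261 in IgG and 19.3, 62.6 and 182 in anti-Ly6G libraries, and Hbb-bs at 6.03, 52.6 and 222 against 18.2, 59.1 and 172. The groups overlapped throughout. Log2 differences of the 4 globin genes were 0.04 to 0.20 (SE 0.24 to 0.28), and those of Car2, Klf1 and Epor -0.05 to -0.09. No member of 7 was called by limma and none had an unadjusted p under 0.05, where 1.40% of 12504 genes were called. The treatment by ZT test called 0 of 7 by limma (1 at an unadjusted p under 0.05) and 0.024% of genes.

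Klf1 had a called daily rhythm in liver. In IgG liver it was at 0.657, 1.56 and 1.68 at ZT 1, 2.66, 3.28 and 4.47 at ZT 5, and 0.984, 1.13 and 2.21 at ZT 17. The ZT 5 values were all above those at ZT 1 and ZT 17. The fitted peak was at 7.85 h with an amplitude of 0.48 on the log2 scale, 1.95-fold from trough to peak (adjusted p = 0.000789). In anti-Ly6G liver the peak was at 7.46 h with an amplitude of 0.33 (adjusted p = 0.0270), a call lost without anti-Ly6G replicates 7, 9, 14 or 17 (adjusted p 0.0572 to 0.0736) or without ZT 9, 13 or 17. The fitted amplitudes of hemoglobin were of like size but did not pass. They were 0.46 for the alpha pair and 0.50 for the beta pair in IgG liver (adjusted p = 0.353 and 0.308), and 0.44 and 0.42 in anti-Ly6G liver (adjusted p = 0.417 and 0.473). Whether Klf1 and hemoglobin differ in rhythm was not tested. Klf1 had r = -0.0946 with the hemoglobin sum over 36 libraries, and 1 read in liver was worth 0.0416 to 0.0978 units. Car2 was called in anti-Ly6G liver (amplitude 0.21, peak 13.4 h, adjusted p = 0.0192) but not without replicate 11 (adjusted p = 0.0663), and not in IgG liver (amplitude 0.03). Whether these rhythms differ between treatments is the treatment by ZT test above. Members called, 1 of 7 in IgG and 2 of 7 in anti-Ly6G, were a smaller share than that of all genes, 42.9% and 34.7%.

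Alas2, of heme synthesis, was lower in anti-Ly6G liver, where hemoglobin did not pass. It was at 88.9, 100.3 and 123 in IgG and 71.5, 87.8 and 97.2 in anti-Ly6G, and it fell by 0.22 (SE 0.037, adjusted p = 0.00159). Its r with the hemoglobin sum was 0.0168. The kinase gene Pim1 of the erythropoietin signalling list fell by 0.41 (adjusted p = 0.0284), a call lost without anti-Ly6G replicate 4 (adjusted p = 0.0509) and in 7 of 15 other settings. These were the 2 called genes among 33 tested from the 4 lists, where 1.4% of all liver genes were called. The genes most like the hemoglobin sum in liver were Prkcb (r = 0.788), Lmbrd1 (0.708), Asah1 (0.675), Mkrn1 (0.659), Pros1 (0.633), Sp110 (0.629), Gm37917 (0.615) and Dlg1 (0.611). In the same libraries neutrophil markers summed to a median of 5.79 in IgG and 13.4 in anti-Ly6G, and macrophage markers to 137 and 173. Their part in the Alas2 difference was not tested.

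In gut, hemoglobin was low and uneven. Hba-a2 was at 1.39, 8.36 and 69.4 in IgG and 1.08, 17.1 and 94.1 in anti-Ly6G libraries. The anti-Ly6G libraries fell into 9 between 1.08 and 6.70 and 9 between 27.5 and 94.1, with none between, and every ZT held libraries of both kinds. Hbb-bs showed the same gap, with 9 anti-Ly6G libraries between 0.492 and 5.73 and 9 between 29.5 and 105. In IgG libraries Hba-a2 had no such gap. Log2 differences of the 4 genes were 0.25 to 0.36 with SE of 0.42 to 0.55, and Car2 was at -0.02 (SE 0.040). None of 5 members was called by limma, none had an unadjusted p under 0.05, and 0.0132% of 15158 genes were called. Treatment by ZT called 0 of 5 members by limma (none at an unadjusted p under 0.05) and 0% of genes. Without the libraries with seminal vesicle and pancreatic transcripts the globin differences were 0.28 to 0.40 and none was called.

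In gut Alas2 (mean 0.733) and Klf1 (mean 0.786) were under the mean of 1 and were not ranked by likeness. The ranked genes most like hemoglobin there were not erythroid. They were the fatty acid transporter Cd36 (r = 0.843, rho = 0.836, and 0.811 without 2 libraries), the fatty acid binding protein Fabp4 (0.788), Pcp4 (0.775), Dazap2 (0.767), the lipid droplet gene Plin4 (0.760), transferrin (Trf, 0.757), the caveolin gene Cav1 (0.749) and the desaturase gene Scd1 (0.745). Bpgm had r = -0.0411 there. Klf1, with medians of 0.728 and 0.822, was under the mean required for testing. No gene of the erythroid lists was called (0 of 41 by limma).

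Car2 had a called daily rhythm in both gut groups. In IgG gut it was at 888, 915 and 983 at ZT 1 and 1749, 2032 and 2144 at ZT 13, and in anti-Ly6G gut at 899, 938 and 948 at ZT 1 and 1621, 1714 and 2068 at ZT 13. In both groups the ZT 13 values lay clear of those at ZT 1. The fitted peaks were at 13.6 h in IgG (amplitude 0.50, 1.99-fold, adjusted p = 5.87e-10) and 13.1 h in anti-Ly6G (amplitude 0.46, 1.90-fold, adjusted p = 4.69e-09). No hemoglobin gene had a called rhythm in gut. Rhythms were called for 33.6% of all genes in IgG gut and 24.6% in anti-Ly6G gut, and for 1 of 5 members in each. Car2 had r = -0.313 with the hemoglobin sum over 36 libraries.

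**Figure D4:**
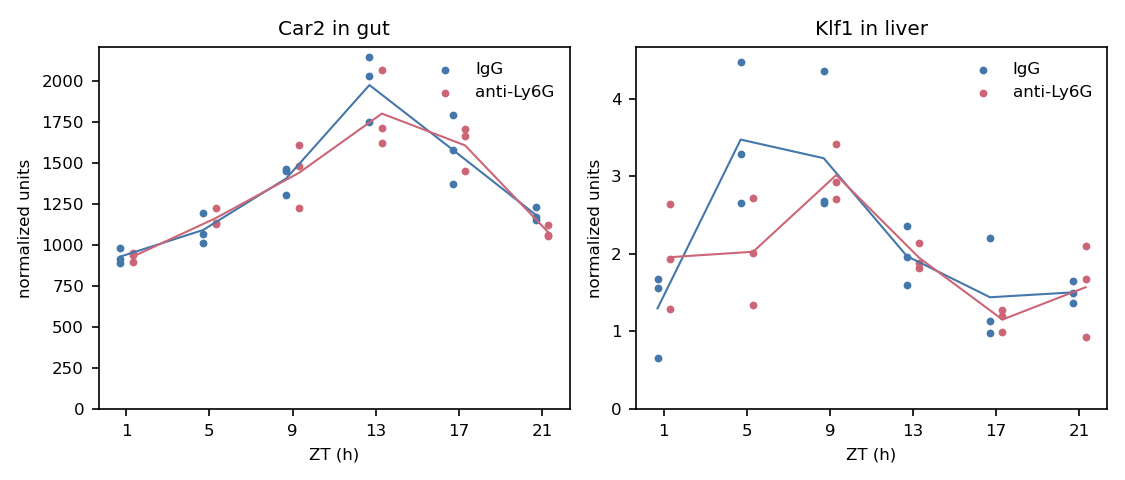
Car2 in gut and Klf1 in liver by ZT (normalized units, axes from 0), with 3 libraries per point of time and treatment as dots and lines through their means. Car2 is highest at ZT 13 in both treatments, and Klf1 in IgG liver is highest at ZT 5 and 9.

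In perfused skin, both alpha globin genes rose in Bmal1-flox against the labelled control. Hba-a1 was at 3.39, 8.35 and 60.6 in the labelled control and 7.44, 28.9 and 138 in Bmal1-flox, and Hba-a2 at 3.73, 16.4 and 115 against 7.94, 52.7 and 244. Hbb-bs was at 4.17, 20.3 and 163 against 10.5, 72.2 and 298, and Hbb-bt at 0.853, 4.597 and 43.8 against 1.89, 12.3 and 58.0. Ranges overlapped for each gene, with 2 to 4 of 15 Bmal1-flox libraries above the labelled control range and none below it. Hba-a1 rose by 1.45 (SE 0.41, adjusted p = 0.0251, 2.74-fold) and Hba-a2 by 1.44 (SE 0.45, adjusted p = 0.0474, 2.72-fold). Hbb-bs differed by 1.53 (SE 0.50, adjusted p = 0.0581) and Hbb-bt by 1.09 (SE 0.44, adjusted p = 0.156), and neither passed. At the same ZT each globin gene was higher in Bmal1-flox at 11 of 15 times. The 2 of 5 members called stand against 5.63% of 15946 genes called in either direction and 2.41% called higher. These 2 are near-identical copies that share reads, so they are not 2 separate observations.

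The calls of both alpha globin genes in Bmal1-flox depended on single libraries. The Hba-a1 call was lost without Bmal1-flox replicate 1 (1.29, adjusted p = 0.0520) or replicate 2 (1.31, adjusted p = 0.0530), and without ZT 4 or ZT 7. The Hba-a2 call was lost on leaving out any 1 of 23 of 47 libraries (adjusted p up to 0.0933). Bmal1-flox replicate 1, at ZT 4, was the highest of all 47 libraries for each globin gene. Summed, the alpha pair rose by 1.49 (adjusted p = 0.0367), while the beta pair differed by 1.49 and did not pass (adjusted p = 0.0685). Car2 differed by 0.08 (adjusted p = 0.773). No gene of the 4 erythroid lists was called in this comparison (0 of 45 by limma); Alas2, at 1.32, 2.51 and 8.92 against 1.81, 3.92 and 17.4, differed by 0.64 (adjusted p = 0.0608). Summed endothelial markers had medians of 183 in the labelled control and 164 in Bmal1-flox, and macrophage markers 217 and 277. Their part in the hemoglobin difference was not tested.

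iDTR skin did not differ detectably from the labelled control in hemoglobin. Hba-a1 was at 2.58, 9.93 and 38.1 in iDTR and Hbb-bs at 4.13, 18.8 and 101, with 3 libraries for Hba-a1 and 1 for Hbb-bs below the labelled control range and none above it. Log2 differences of the 4 genes were -0.01 to -0.18 (SE 0.41 to 0.49), and their sign turned for all 4 under some alternatives. Car2 rose by 0.60 (SE 0.11, adjusted p = 1e-05, 1.52-fold). It was at 0.887, 1.38 and 2.76 in the labelled control and 1.601, 2.67 and 4.67 in iDTR, with all 16 iDTR libraries above the labelled control median and 7 above its range. So 1 of 5 members was called, while 63.0% of all genes were called in this comparison. The 2 skin comparisons share the labelled control libraries. Compared directly, a contrast added after the data were seen, Bmal1-flox exceeded iDTR in all 4 globin genes by 1.18 to 1.63 (adjusted p 0.00102 to 0.0194) and was lower in Car2 by -0.52 (adjusted p = 0.000123), with 61.5% of genes called.

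Epor in skin was under the mean required for the test. It was at 0.437, 0.867 and 2.01 in the labelled control, 0.194, 0.415 and 0.855 in iDTR and 0.236, 0.849 and 1.599 in Bmal1-flox. All 16 iDTR libraries were below the labelled control median and 9 below its range. With no filter on low values Epor was called lower in iDTR (-0.41, SE 0.094, adjusted p = 0.000182) and not called in Bmal1-flox (-0.02, adjusted p = 0.927). Klf1 (medians 0.497 to 0.648) and Slc4a1 (medians 0.104 to 0.149) were low in all 3 groups and not called without the filter.

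**Figure D5:**
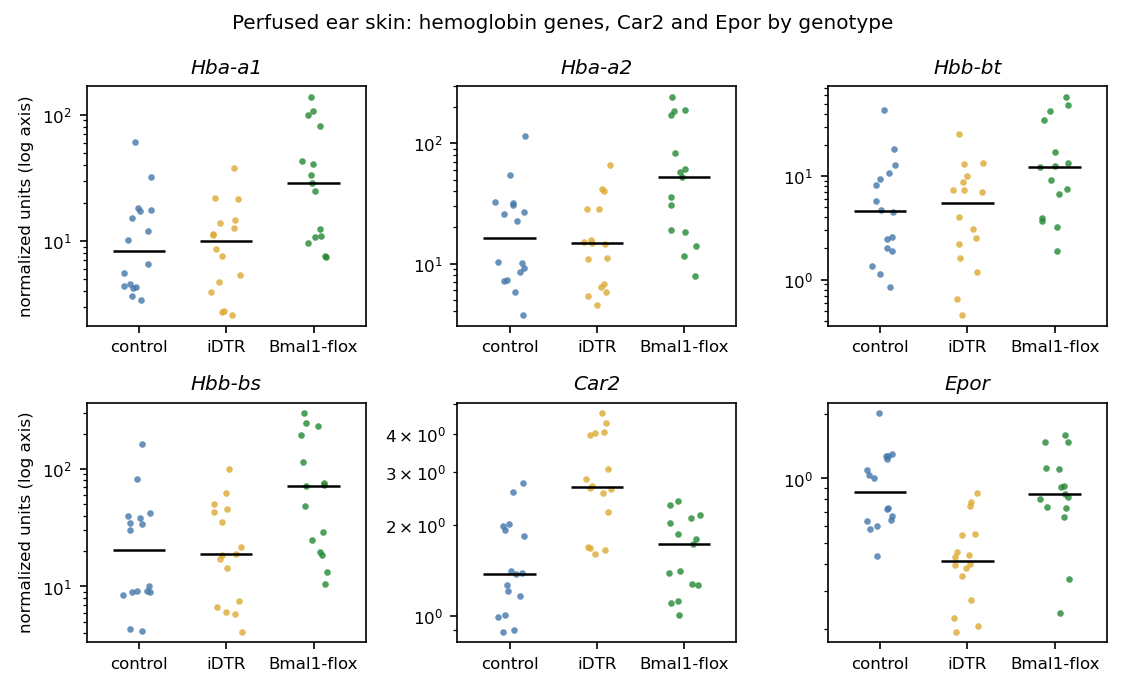
Hemoglobin genes, Car2 and Epor in ear skin (normalized units, log axes) in 16 labelled control, 16 iDTR and 15 Bmal1-flox libraries, 1 mouse each, with medians as bars. Bmal1-flox medians are the highest for the 4 hemoglobin genes, iDTR is highest for Car2 (median 2.67) and lowest for Epor (median 0.415), and the groups overlap in every panel.

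Erythroid lists in iDTR skin are read against the 63.0% of all genes called in either direction. Of 15946 genes tested, 4886 were called higher and 5162 lower. Of 11 membrane and skeleton genes 8 fell and none rose, among them the water channel gene Aqp1 (by 0.48, adjusted p = 9.44e-12), the actin cap gene Tmod1 (by 0.57, adjusted p = 1.87e-07), the adducin gene Add2 (by 0.67, adjusted p = 1.98e-06) and the ankyrin gene Ank1 (by 0.56, adjusted p = 5.53e-06). These genes are also made outside the red cell line. Of 8 transcription factors 5 fell, with Lyl1 at -0.64, Lmo2 at -0.54, Ikzf1 at -0.35 and Ldb1 at -0.34. Among 14 late erythroid genes 3 rose and 6 fell, with Slc25a38 at -0.26, Bnip3l at -0.25, Mkrn1 at -0.18 and Fech at -0.14. In the erythropoietin signalling list 6 of 12 rose and 4 fell. The feedback inhibitor Socs3 rose by 1.22, the erythroferrone gene Erfe by 0.76 and Tfrc by 0.32, and the transducer Stat5b fell by 0.25. Neutrophil markers summed to 54.3 to 151 (median 71.3) in iDTR against 20.6 to 50.8 (median 29.0) in the labelled control. Their part in the list counts was not tested.

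In skin Klf1, Epor and Slc4a1 were under the mean of 1 and were not ranked by likeness. Among the ranked genes outside the members, Alas2 stood closest to hemoglobin. Over 47 libraries it had r = 0.893 (rho = 0.909, and 0.883 without 2 libraries), and the next were Nap1l3 (0.613), Zfp568 (0.609), Sox13 (0.531), Camk4 (0.502), Cpeb1 (0.490), 2900089D17Rik (0.486) and Cers2 (0.483). In iDTR Alas2 was at 0.594, 1.24 and 5.36 and fell by 0.53 (SE 0.21, adjusted p = 0.0253), a call lost without control replicate 12 (adjusted p = 0.0570) and in 5 other settings. Per 1000 hemoglobin, Alas2 had a geometric mean of 49.0 in the labelled control and 28.8 in iDTR (adjusted permutation p = 0.0782). Against Bmal1-flox the means at shared ZT were 48.8 and 30.1 (adjusted permutation p = 0.0945). No ratio within skin passed the test. None of 5 members had a called rhythm in any skin group by limma, and none had an unadjusted p under 0.05, where rhythms were called for 0.383% of genes in the labelled control, 0.326% in Bmal1-flox and 10.9% in iDTR.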

How the data were processed

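The deposited tables hold normalized signal values per gene and library, 1 table per tissue. Per the labels' protocols, the authors made 50 nt single reads from 200 ng total RNA and quantified them with RSEM 1.2.20 or Kallisto 0.43.1 on GRCm38 (Ensembl build 84). The submitters' processing notes list CASAVA 1.8, cutadapt 1.7.1, RSEM 1.7.1 and limma 3.46. The normalization and gene filter are not given in the sources used here. Values behaved as estimated counts plus 0.5, scaled to a library total, which gave the depths.

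Genes with a mean of at least 1 were tested per tissue as log2(value + 1) with limma 3.58.1 (trend, R 4.3.3), with ZT as a factor, or a 24 h wave for rhythms and skin. P-values are two-sided, with a threshold of 0.05. The fit was tested on simulated data. A fold is on the log2(value + 1) scale and understates low genes. Members and lists were chosen with earlier results of these data known. The text names all members, up to 4 genes per erythroid list by smallest adjusted p, and the 8 genes of highest r; other genes were named after their values were seen. Some genes that this rule names are not reported here. Alternatives covered pseudocount, filter, normalization, weights, summed pairs, time term, and each library and ZT left out.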

Additional observations from a re-analysis of the deposited data

How the results depend on the processing

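Counts of called members changed with the libraries, times and settings used. Leaving out a ZT removes more libraries than leaving out 1, so these 2 kinds of change are not compared. In bone marrow, treatment called 5 members, 2 without ZT 1, 13 or 21, 3 without ZT 17, and 4 to 7 when 1 library was left out. Genes called lower numbered 2 of the membrane list and 5 of the late erythroid list without ZT 1, 4 of the membrane list without ZT 21, and 8 to 12 and 8 to 9 when 1 library was left out. Marrow rhythms called 1 member in IgG with ZT as a factor or without ZT 13 (0 to 1 with 1 library left out), and 1 in anti-Ly6G with ZT as a factor or without ZT 1. In liver the IgG rhythm called 0 members at a filter of 4, where Klf1 was no longer tested. The anti-Ly6G liver rhythms called 1 member at a filter of 4, rescaled without globin genes, with ZT as a factor, or without ZT 5, 9 or 21, 0 without ZT 13 or 17, and 1 to 2 with 1 library left out. In lung, treatment by ZT called 1 member at a pseudocount of 5, with array weights or without ZT 9 (0 to 1 with 1 library left out). The IgG lung rhythm called 2 when ZT was a factor, 0 if ZT 1 was left out, and the anti-Ly6G lung rhythm 0 without ZT 1, 9 or 21 (0 to 1 with 1 library left out). Bmal1-flox against the labelled control called 1 member rescaled without globin genes, with pairs summed, or without ZT 5, 12, 15, 16, 18, 19, 21, 22 or 24, 0 without ZT 4 or 7, and 0 to 3 with 1 library left out. iDTR against the labelled control called 2 members with no filter and 0 at a filter of 4, where Car2 was not tested. Except where said, the cause of these changes was not tested.

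Differences that passed no test changed sign in some settings. In gut, Car2 was at 0.00282 without ZT 13 and 0.00269 without ZT 21. In liver, Epor was at 0.00112 without ZT 1, Klf1 at 0.0341 without ZT 5, Hba-a2 at -0.0290 without ZT 9 and, with 1 library left out, between -0.0133 (IgG replicate 10) and 0.25, and Hba-a1 at -0.0461 without ZT 1, -0.0578 without ZT 9, -0.0461 without ZT 13 and between -0.0594 and 0.15 with 1 library left out (below 0 in 6 of 36 cases). In iDTR skin, Hbb-bs was at 0.00324 with quantile normalization, 0.196 under array weights, while leaving out ZT 1, 3, 10, 12, 13, 18, 19 or 24 gave 0.193, 0.137, 0.221, 0.0586, 0.00946, 0.159, 0.0183 and 0.0306, and -0.16 to 0.184 with 1 library left out. Hba-a2 there was at 0.00767 under array weights and 0.0198 when ZT 10 was left out. Hba-a1 was at 0.0539 with array weights, 0.0151 without ZT 1, 0.104 without ZT 10, and -0.26 to 0.0464 with 1 library left out. Hbb-bt was at 0.158 under array weights, while leaving out ZT 1, 3, 10 or 18 gave 0.0644, 0.0519, 0.114 and 0.0358, and -0.24 to 0.0940 with 1 library left out.

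In gut, the replicate number as a block left 0 members called. Same-numbered libraries deviated together weakly if at all (18 pairs, r from -0.221 to 0.184, 6 over 0.1). These values cannot show whether the samples were handled as pairs, and the main test did not use the numbers. Low genes limit the precision, since 1 read is worth up to 0.131 units.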
